A study of Mus musculus with 6 samples.

Results

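The genes of the proteasome and the immunoproteasome were examined in MLL-AF9 leukemia cells of mice given vehicle or DS-5272. Of the 48 gene symbols in the expression table that start with Psma to Psmg and a number, 46 averaged at least 1 FPKM and were kept, out of 11130 genes that reached this level in the mean of the 6 samples. FPKM gives the fragments of a gene per kilobase of its transcript, relative to all mapped fragments. The other 2 genes, the testis subunit Psma8 and the thymus subunit Psmb11, reached means of only 0.0143 and 0.0165 FPKM, whereas the lowest kept genes, Psmf1 and Psmd9, had means of 9.52 and 10.97 FPKM. By role, 5 of the 46 genes form the immunoproteasome set (Psmb8, Psmb9, Psmb10, Psme1 and Psme2), 30 are constitutive subunits, 7 are assembly factors, and 3 are other activators or inhibitors. The remaining one, Psmc3ip, matched by its symbol alone and encodes a recombination factor that is not a proteasome subunit. Psmb5 was outside the set because its only entry is joined with the microRNA gene Mir686, which lies inside it.

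Gene expression was measured by RNA-Seq 24 h after oral treatment, in 3 samples from mice given vehicle and 3 from mice given DS-5272 at 80 mg/kg. DS-5272 blocks the binding of MDM2 to p53 and thereby activates p53. All mice were of the C57BL/6J strain and carried leukemia from wild-type c-Kit+ bone marrow progenitors with a retroviral MLL-AF9 oncogene, so both groups share MLL-AF9 and intact p53. The cells had been passed through recipient mice several times, which limits the model to a selected and strongly leukemogenic population, and the gate used to collect the RNA-Seq cells from bone marrow was not given in the sources used here. Ages of the mice were not given either.

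The proteasome degrades proteins tagged with ubiquitin. Its core, the 20S particle, is a barrel of alpha and beta rings whose Psmb5, Psmb6 and Psmb7 subunits cut the substrate, and the 19S cap recognises ubiquitin, unfolds the substrate with a ring of ATPases and feeds it into the core. Under interferon signaling, Psmb8, Psmb9 and Psmb10 replace the catalytic subunits in newly built cores and the PA28 activator of Psme1 and Psme2 is made, which changes the peptides offered to T cells on MHC class I.

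The promoter windows of the genes, which run from 250 bases before to 50 bases after the RefSeq start (GRCm38.p6), were searched on both strands for 5 short motifs. Windows existed for 39 of the 46 genes, including all 5 immunoproteasome genes and 24 constitutive subunits. The interferon-stimulated response element (GAAA, any 2 bases, GAAA) occurred in 3.44% of all 32851 windows, in 1 of the 5 immunoproteasome genes (Psme1) and in 2 of the 24 constitutive genes (Psmb3 and Psmd4). The gamma-activated sequence TTCNNNGAA occurred in 8.3% of all windows, in Psmb8 alone among the 5 and in Psmd2 alone among the 24. Matches of the antioxidant response element TGACNNNGC were in 12.4% of all windows, in none of the 5 and in 3 of the 24. CCAAT boxes were in 37.4% of all windows, in 1 of the 5 (Psmb9) and in 10 of the 24, and GC boxes (GGGCGG) were in 35.7% of all windows, in 3 of the 5 and in 15 of the 24. These are matches of letters and overlapped none of each other in the sequences shown.

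The sites of the immunoproteasome genes with an interferon-type or CCAAT match are shown 5′ to 3′ on the strand of the gene, 30 bases each, with the match in capitals. They lie at chr17:34198088-34198117 (+) for Psmb8, at chr17:34187321-34187350 (-) for Psmb9 and at chr14:55578493-55578522 (+) for Psme1, and all 3 are inside annotated GENCODE exons.
Psmb8: tcctccgctgTTCCCAGAAgatgccccccc
Psmb9: gcgcagccgctgATTGGaaagccgagcccc
Psme1: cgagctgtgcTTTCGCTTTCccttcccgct

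For Psme2 and Psmb10, which had no interferon-type match in their windows, and for Psmc1, the 19S ATPase gene with the largest fall, the stretch before the start that lies in no annotated exon is shown. The stretches are chr14:55591114-55591351 (-) for Psme2, chr8:105938445-105938642 (-) for Psmb10 and chr12:100109952-100110153 (+) for Psmc1. Capitals mark a GC box on the reverse strand in Psme2 and a CCAAT box in Psmc1, and Psmb10 held none of the 5 motifs.
Psme2: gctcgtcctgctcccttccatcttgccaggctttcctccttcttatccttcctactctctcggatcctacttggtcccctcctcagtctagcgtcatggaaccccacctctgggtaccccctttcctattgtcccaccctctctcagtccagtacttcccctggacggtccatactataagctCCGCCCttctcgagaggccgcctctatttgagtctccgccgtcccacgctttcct
Psmb10: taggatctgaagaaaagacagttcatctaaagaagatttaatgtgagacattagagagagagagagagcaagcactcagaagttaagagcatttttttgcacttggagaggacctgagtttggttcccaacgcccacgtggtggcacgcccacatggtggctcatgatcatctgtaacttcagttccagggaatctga
Psmc1: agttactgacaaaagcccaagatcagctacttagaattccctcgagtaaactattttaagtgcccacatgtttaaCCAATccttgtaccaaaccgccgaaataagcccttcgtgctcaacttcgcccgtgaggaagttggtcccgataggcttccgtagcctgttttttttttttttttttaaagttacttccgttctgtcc

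Before the results, facts on the libraries are given. The estimated depth was 34900000 to 43100000 fragments in the vehicle samples and 23300000 to 32200000 in the DS-5272 samples, and the FPKM of a library summed to 445316 to 501241 in vehicle and 499229 to 661184 in DS-5272 samples. Rescaling the libraries to a common total moved the median log2 fold change of all tested genes from 0.04 to -0.19 and the split of called genes from 2697 higher and 2451 lower to 1713 and 3555. Of the leukemia markers, Itgam rose (139.7 to 190.4 FPKM in vehicle and 530.2 to 1087 FPKM in DS-5272 samples), Kit and Mpo fell, and Meis1 did not pass the limma test. Bone marrow macrophage genes summed to 60.8 to 116 FPKM in vehicle and 188 to 430.4 FPKM in DS-5272 samples, with 4 of the 8 genes called higher (limma, adjusted p under the threshold of 0.05), against 24.2% of all tested genes, and the highest sum in DS-5272 replicate 1. With the replicate number as a block, Cd5l was called higher too (limma adjusted p = 0.0393). In every sample but DS-5272 replicate 1, Vcam1 and Adgre1 made up most of the macrophage sum. Vcam1 overlapped between the groups, as RNA of bulk samples. The paper reports VCAM-1 as raised by DS-5272 in c-Kit+ leukemia cells, there as surface protein in single-cell mass cytometry. Adgre1 was highest in DS-5272 replicate 3 (116 FPKM), and all other genes of this list in DS-5272 replicate 1. Erythroid genes summed to 2.46 to 4.61 FPKM in vehicle and 12.7 to 146 FPKM in DS-5272 samples, again highest in DS-5272 replicate 1. The 7 NK cell genes summed to 1.40 to 2.31 FPKM in vehicle and 2.61 to 3.85 FPKM in DS-5272 samples, with Gzma the highest at up to 1.95 FPKM and Ncr1 at most 0.354 FPKM. The 6 measured T cell genes summed to 1.94 to 2.54 FPKM in vehicle and 1.54 to 4.79 FPKM in DS-5272 samples, with Cd4 at 3.28 FPKM in DS-5272 replicate 1, Lck at up to 2.15 FPKM and Cd3e at most 0.313 FPKM.

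Among the immunoproteasome genes, 4 of 5 (Psmb9, Psmb10, Psme1 and Psme2) were called higher with DS-5272 and none lower in the values as deposited, by 1.32-fold to 1.53-fold on the log2(FPKM + 1) scale. Over all tested genes, 24.2% were called higher with DS-5272, 22.0% lower and 46.3% in either direction. None of the 5 genes was called after rescaling to a common upper quartile, to a common total or by quantile normalization, where 20.1%, 15.4% and 21.7% of all tested genes were called higher. Only Psme1 and Psme2 were called after rescaling by median ratio, against 24.0% of all tested genes. The median log2 fold change of the 5 genes was 0.43, which is 0.39 above that of all tested genes, and after rescaling to a common total it was 0.17, which is 0.36 above. By quantile normalization it was 0.20, which is 0.24 above. In bulk samples such as these, fewer cells of a type and less RNA per cell cannot be told apart.

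The plot of FPKM by gene shows the immunoproteasome genes beside their constitutive counterparts.

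**Figure D1:**
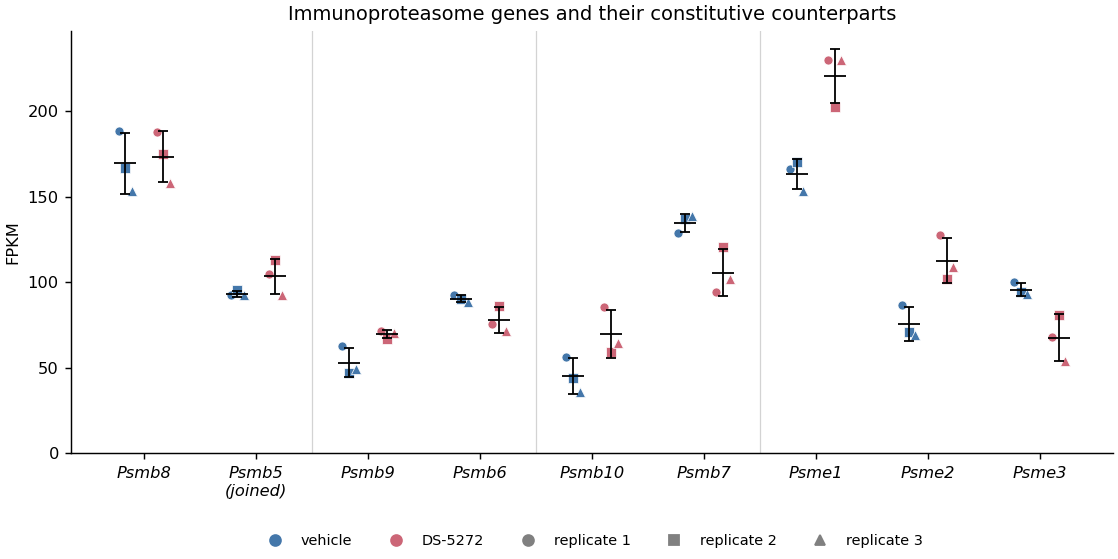
FPKM (vertical axis) of the 5 immunoproteasome genes and of Psmb5 (joined entry), Psmb6, Psmb7 and Psme3 in the 6 samples, vehicle in blue and DS-5272 in red, with the symbol giving the replicate number and the bars the mean ± SD (n = 3 per group). Psmb9, Psmb10, Psme1 and Psme2 lie higher in all 3 DS-5272 samples than in any vehicle sample, Psmb6, Psmb7 and Psme3 lie lower in all 3, and Psmb8 and Psmb5 overlap between the groups.

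Psmb8, the immunoproteasome counterpart of Psmb5, was the most abundant of the 3 inducible catalytic genes and did not pass the test. It measured 188, 167 and 153 FPKM in the vehicle samples and 188, 175 and 158 FPKM in the DS-5272 samples. The groups overlapped over nearly their whole range, with replicate 1 the highest in each group. The log2 fold change was 0.04 (SE 0.12, limma adjusted p = 0.826), and it was below 0 under each of the 4 rescalings. Whether its change differed from those of the other 4 genes was not tested.

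Psmb9, the counterpart of Psmb6, measured 63.0, 47.1 and 49.2 FPKM in the vehicle samples and 71.4, 67.1 and 70.4 FPKM in the DS-5272 samples. The 3 DS-5272 samples lay close together and above all vehicle samples, of which replicate 1 was nearest to them. The log2 fold change was 0.40 (SE 0.13, limma adjusted p = 0.0430).

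Psmb10, the counterpart of Psmb7, measured 56.7, 44.1 and 35.8 FPKM in the vehicle samples and 85.7, 59.2 and 64.8 FPKM in the DS-5272 samples. The groups did not overlap, but the lowest DS-5272 sample was only just above vehicle replicate 1. The log2 fold change of 0.61 (SE 0.20, limma adjusted p = 0.0463) was the largest of the set and had the widest error.

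Psme1 and Psme2 encode the alpha and beta chains that build the PA28 ring on the ends of the core. Psme1 measured 166, 170.2 and 153 FPKM in the vehicle samples and 230.2, 202 and 229.9 FPKM in the DS-5272 samples, with a log2 fold change of 0.43 (SE 0.11, limma adjusted p = 0.0166). Psme2 measured 86.9, 70.9 and 69.2 FPKM in vehicle and 128, 102 and 109 FPKM in DS-5272 samples, with a log2 fold change of 0.57 (SE 0.14, limma adjusted p = 0.0153). Both genes were above every vehicle sample in every DS-5272 sample, and replicate 2 was the lowest of the DS-5272 samples for both. The ratio of Psme1 to Psme2 was 1.91, 2.40 and 2.22 in vehicle and 1.803, 1.99 and 2.11 in DS-5272 samples and overlapped between the groups.

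All 5 immunoproteasome genes were highest, among the DS-5272 samples, in replicate 1, the library with the highest macrophage and erythroid sums, and 4 of the 5 were highest in replicate 1 of the vehicle samples. Without DS-5272 replicate 1, 2 of the 5 genes were called higher (Psme1 and Psme2), against 2934 of all 11130 tested genes. Without vehicle replicate 2 or vehicle replicate 3 none of the 5 was, against 1623 and 1799 of the 11130. The part of the macrophage and erythroid genes in this result was not tested. Exons of Psmb8, Psmb9 and Psme1 overlap exons of Gm20496, Tap1 and Emc9 of the opposite strand. The libraries were strand-specific, but no source used here says whether fragments were assigned by strand. It is therefore not known whether the fragments of such a pair were kept apart.

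The 3 inducible catalytic genes lie on chromosomes 17 and 8. Psmb9 (GRCm38, chr17:34181987-34187764) and Psmb8 (chr17:34197721-34201454) flank the peptide transporter gene Tap1 (chr17:34187553-34197225), and Tap2 (chr17:34203527-34216321) follows Psmb8. In this row of 4 genes of the MHC, the first 2 were called higher as deposited and the last 2 were not. The RefSeq starts of Psmb9 and Tap1 face away from each other, with 225 bases between them. Psmb10 lies at chr8:105935735-105938444, and Psme1 (chr14:55578123-55581529) and Psme2 (chr14:55587441-55591113) lie close together.

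Of the 30 constitutive subunits, 12 were called lower and none higher, which is 40.0% against 22.0% of all tested genes that were called lower. The DS-5272 samples lay below all vehicle samples for 20 of the 30 genes and above them for none, where over all tested genes 29.7% lay below, 32.1% above and 61.8% either way without overlap. Their median log2 fold change was -0.24, which is 0.29 below that of all tested genes. The direction held under each of the 4 rescalings, which called 23 (common upper quartile), 14 (median ratio), 25 (common total) and 27 (quantile normalization) of the 30 lower, against 28.6%, 23.7%, 31.9% and 28.2% of all tested genes. When the replicate number entered as a block, 14 of the 30 were called lower and none higher, against 24.9% and 30.3% of all tested genes, and the immunoproteasome calls were the same 4.

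**Figure D2:**
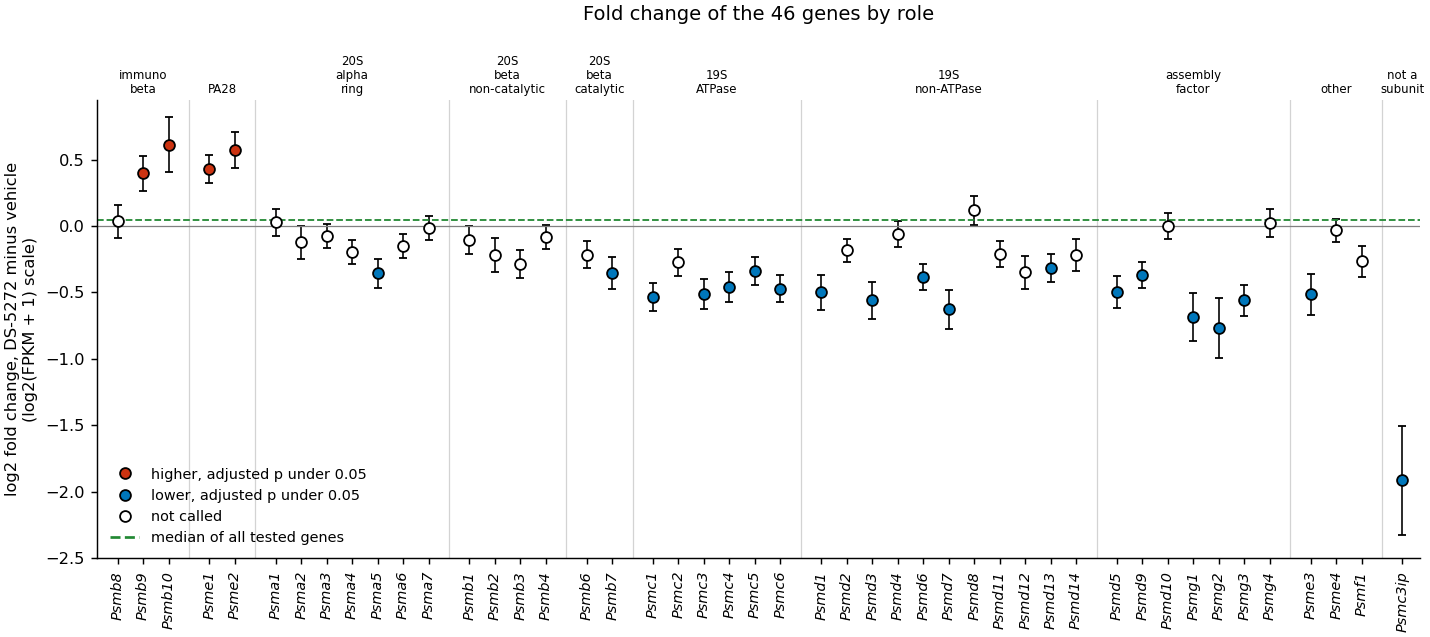
Log2 fold change of each of the 46 genes (DS-5272 minus vehicle, log2(FPKM + 1) scale, vertical axis), grouped by role, with the SE as bars and filled points for genes past an adjusted p of 0.05 (limma). Psmb9, Psmb10, Psme1 and Psme2 lie above the dashed median of all tested genes and Psmb8 just under it, and the 6 ATPases of the 19S cap and all 7 assembly factors lie below it. The 4 rises are called in the values as deposited and 0 to 2 of them after rescaling.

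Fewer genes were called in the core than in the cap. In the 20S core, 2 of 13 constitutive genes were called lower, with a median log2 fold change of -0.15, and in the 19S cap 10 of 17 were, with a median of -0.35, against 22.0% of all tested genes called lower. After rescaling to a common total, 9 of 13 core genes and 16 of 17 cap genes were called lower, against 31.9%. The mean log2(FPKM + 1) of the 17 cap genes minus that of the 13 core genes was -0.61, -0.61 and -0.62 in the vehicle samples and -0.78, -0.75 and -0.85 in the DS-5272 samples. This difference is taken within a library, and the 3 DS-5272 samples were all lower than the vehicle samples, whose spread was small. It is given as a description, with no test.

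In the alpha ring, which gates the entry to the core, 1 of 7 genes was called lower, against 22.0% of all tested genes. Psma5 measured 69.6, 66.9 and 69.8 FPKM in vehicle and 53.5, 59.9 and 47.7 FPKM in DS-5272 samples (log2 fold change -0.36, SE 0.11, limma adjusted p = 0.0346), and its groups did not overlap. Psma1, at the other end of the ring's range, measured 177, 167 and 173 FPKM in vehicle and 169.7, 192 and 167 FPKM in DS-5272 samples. Its groups overlapped, and its log2 fold change of 0.03 (SE 0.10, limma adjusted p = 0.820) was below 0 under each of the 4 rescalings. Of the 7 genes, 3 lay lower in every DS-5272 sample, against 29.7% of all tested genes, and 4 overlapped.

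None of the 4 beta subunits without catalytic activity passed the test. Psmb3 came nearest, with 135, 142 and 136 FPKM in vehicle and 102, 123 and 114 FPKM in DS-5272 samples, which did not overlap (log2 fold change -0.28, SE 0.10, limma adjusted p = 0.0630, and 0.0377 with the replicate block). Psmb4 overlapped between the groups and had the smallest difference, -0.08 (SE 0.09, limma adjusted p = 0.494).

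The constitutive catalytic genes are the counterparts of the inducible ones. Psmb6, the caspase-like subunit, measured 92.4, 90.4 and 88.4 FPKM in vehicle and 75.7, 86.2 and 71.9 FPKM in DS-5272 samples, with a log2 fold change of -0.22 (SE 0.10, limma adjusted p = 0.124). Psmb7, the trypsin-like subunit, measured 129, 137 and 139 FPKM in vehicle and 94.3, 121 and 102 FPKM in DS-5272 samples, with a log2 fold change of -0.35 (SE 0.12, limma adjusted p = 0.0471). Neither gene overlapped between the groups, and DS-5272 replicate 2 was nearest to the vehicle samples for both. The joined entry of Psmb5, the chymotrypsin-like subunit, measured 92.6, 95.6 and 92.4 FPKM in vehicle and 105, 113 and 92.9 FPKM in DS-5272 samples, which overlapped (log2 fold change 0.14, SE 0.10, limma adjusted p = 0.293), and it was below 0 after rescaling to a common total or by quantile normalization.

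Within a library, each inducible gene was divided by its counterpart. The ratio of Psmb9 to Psmb6 was 0.682, 0.521 and 0.557 in vehicle and 0.944, 0.778 and 0.979 in DS-5272 samples, a 1.54-fold rise in the mean log ratio without overlap. Psmb10 to Psmb7 gave 0.440, 0.322 and 0.258 in vehicle and 0.908, 0.491 and 0.634 in DS-5272 samples, 1.98-fold higher and also without overlap. Psmb8 to Psmb5 gave 2.03, 1.75 and 1.66 in vehicle and 1.79, 1.55 and 1.70 in DS-5272 samples, which overlapped, with a fold of 0.927. The first 2 ratios were thus higher in each of 3 same-numbered pairs and the third in 1 of 3. Each of the first 2 ratios had p = 0.1 in a two-sided exact permutation test, the smallest p that 3 samples against 3 allow, the third had p = 0.5 in this exact test, and adjusted over the 3 ratios these were 0.15, 0.15 and 0.5.

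**Figure D3:**
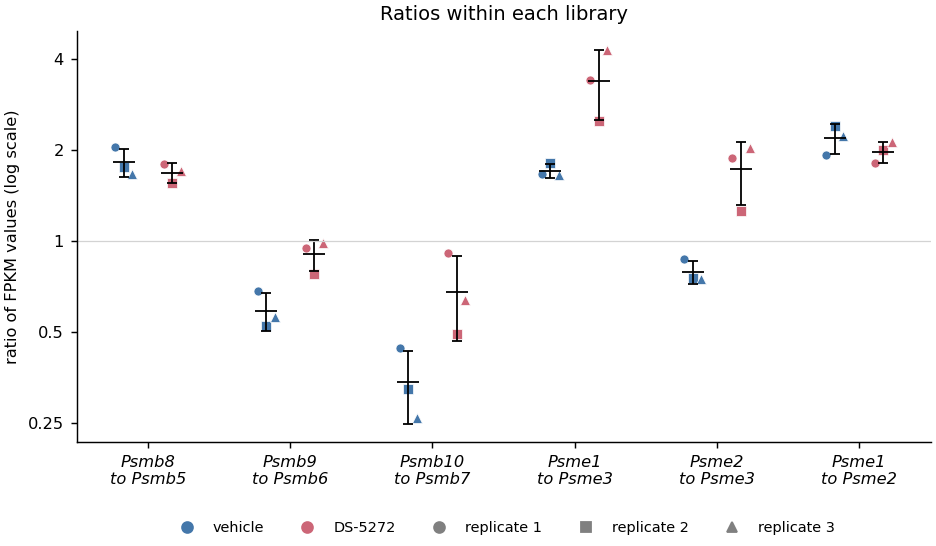
Ratio of FPKM values within each library (vertical axis, log scale) for 6 pairs of genes, vehicle in blue and DS-5272 in red, with bars for the mean ± SD (n = 3 per group). Psmb9 to Psmb6, Psmb10 to Psmb7 and both PA28 chains to Psme3 are higher in all 3 DS-5272 samples than in any vehicle sample, and Psmb8 to Psmb5 and Psme1 to Psme2 overlap.

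The 6 ATPases form the motor of the 19S cap. All 6 lay lower in every DS-5272 sample than in any vehicle sample, against 29.7% of all tested genes. Of the 6, 5 were called lower, against 22.0%, with Psmc2 the exception (log2 fold change -0.27, SE 0.10, limma adjusted p = 0.0657). Psmc1 fell the most, from 129, 136 and 132 FPKM in vehicle to 91.0, 101 and 83.0 FPKM in DS-5272 samples (log2 fold change -0.53, SE 0.10, limma adjusted p = 0.00862). The vehicle samples lay within a narrow range for this gene (coefficient of variation 2.58%). The DS-5272 samples were more spread (9.61%) and all lay well below the vehicle samples. Psmc1 was the only constitutive gene that stayed called under all 16 alternatives. The vehicle samples of the 6 genes had a median coefficient of variation of 2.57% and the DS-5272 samples one of 9.77%.

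Of the 11 other cap subunits, which hold the ubiquitin receptors, the lid and the deubiquitinase Psmd14, 5 were called lower (Psmd1, Psmd3, Psmd6, Psmd7 and Psmd13), against 22.0% of all tested genes. Psmd7, the lid partner of Psmd14, measured 92.2, 84.5 and 84.5 FPKM in vehicle and 58.3, 66.1 and 45.4 FPKM in DS-5272 samples (log2 fold change -0.63, SE 0.15, limma adjusted p = 0.0150). This was the largest fall among the 30 constitutive genes, and its groups did not overlap. At the other end, Psmd8 measured 97.8, 109 and 107 FPKM in vehicle and 102, 123 and 118 FPKM in DS-5272 samples, which overlapped. Its log2 fold change was 0.12 (SE 0.11, limma adjusted p = 0.408) and was below 0 after rescaling to a common upper quartile, to a common total or by quantile normalization. Psmd4, a ubiquitin receptor, differed by -0.06 (SE 0.10, limma adjusted p = 0.635) and Psmd14 by -0.22 (SE 0.12, limma adjusted p = 0.184).

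Assembly factors help to build the particle and are absent from the finished one. Of 7 such genes, 5 were called lower, against 22.0% of all tested genes, and their median log2 fold change was -0.49. Psmg2, a chaperone of the alpha ring, had the largest fall, from 21.8, 21.6 and 19.4 FPKM in vehicle to 14.3, 14.7 and 7.86 FPKM in DS-5272 samples (log2 fold change -0.77, SE 0.23, limma adjusted p = 0.0311). Its partner Psmg1 measured 29.2, 26.9 and 29.1 FPKM in vehicle and 18.5, 21.4 and 12.96 FPKM in DS-5272 samples (log2 fold change -0.68, SE 0.18, limma adjusted p = 0.0202). In both genes DS-5272 replicate 3 was the lowest and the groups did not overlap. Psmg3, which with Psmg4 forms a further chaperone pair, fell by 0.56 on the log2 scale (SE 0.12, limma adjusted p = 0.0104), whereas Psmg4 differed by 0.03 (SE 0.11, limma adjusted p = 0.856) and was below 0 under each of the 4 rescalings. The cap chaperones Psmd5 and Psmd9 fell by 0.49 (SE 0.12, limma adjusted p = 0.0166) and 0.37 (SE 0.10, limma adjusted p = 0.0225) on the log2 scale. The third cap chaperone Psmd10, also known as gankyrin, overlapped between the groups at 19.9, 18.9 and 21.3 FPKM in vehicle and 19.7, 18.7 and 21.7 FPKM in DS-5272 samples.

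Beside Psme1 and Psme2, the set holds the activators Psme3 and Psme4 and the inhibitor Psmf1. Psme3, the nuclear PA28 gamma chain, measured 100.1, 94.1 and 93.0 FPKM in vehicle and 67.9, 81.1 and 53.8 FPKM in DS-5272 samples (log2 fold change -0.51, SE 0.16, limma adjusted p = 0.0336), without overlap. The ratio of Psme1 to Psme3 was 1.66, 1.81 and 1.65 in vehicle and 3.39, 2.50 and 4.27 in DS-5272 samples. That of Psme2 to Psme3 was 0.868, 0.753 and 0.744 in vehicle and 1.88, 1.26 and 2.02 in DS-5272 samples. Both ratios were higher in all 3 DS-5272 samples, by 1.94-fold and 2.14-fold in the mean log ratio, and were not tested. Psme4, the PA200 activator, overlapped between the groups (14.2 ± 0.0505 FPKM in vehicle and 13.9 ± 0.317 FPKM in DS-5272, SD, n = 3), and the inhibitor Psmf1 had 10.5 ± 0.878 and 8.56 ± 0.863 FPKM (SD, n = 3, log2 fold change -0.27, SE 0.12, limma adjusted p = 0.101).

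Psmc3ip, which is no proteasome subunit and takes part in meiotic recombination, had the largest change of the 46 genes. It measured 23.4, 19.6 and 20.1 FPKM in vehicle and 5.62, 9.06 and 1.96 FPKM in DS-5272 samples (log2 fold change -1.91, SE 0.41, limma adjusted p = 0.0111). The groups were far apart, and DS-5272 replicate 2 had the highest of the treated values here too.

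The sets were compared within each library through the mean log2(FPKM + 1) of the genes. The 5 immunoproteasome genes minus the 30 constitutive genes gave 0.02, -0.26 and -0.35 in vehicle and 0.70, 0.23 and 0.51 in DS-5272 samples, so that all treated samples were above all vehicle samples. The mean difference between the groups was 0.68, with group values of -0.20 ± 0.19 and 0.48 ± 0.23 (SD, n = 3). It stayed between 0.66 and 0.68 under the other settings of scaling and filter and between 0.57 and 0.80 when 1 sample was left out. Because the genes were chosen with results known, no test was run on it.

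**Figure D4:**
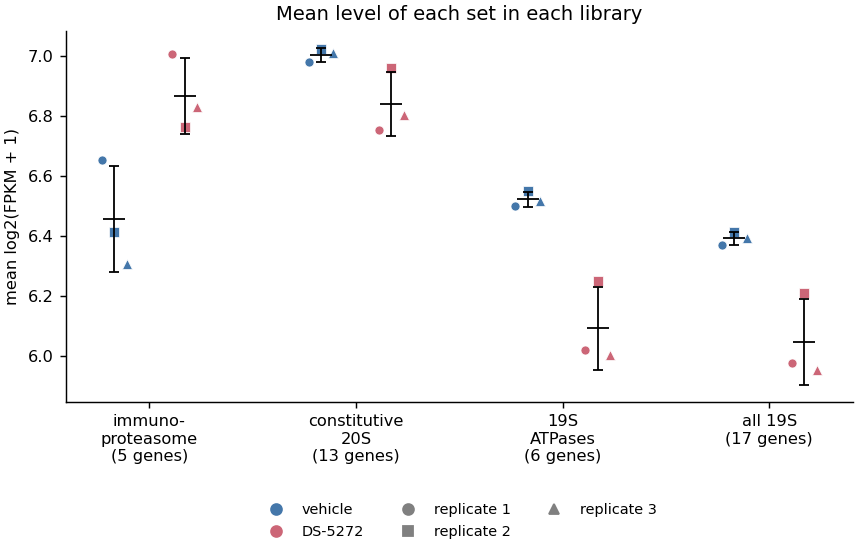
Mean log2(FPKM + 1) of the immunoproteasome genes, the constitutive 20S genes, the 19S ATPases and all 19S genes in each of the 6 samples (vertical axis, which does not start at 0), vehicle in blue and DS-5272 in red, with bars for the mean ± SD (n = 3 per group). The DS-5272 samples lie above the vehicle samples for the immunoproteasome and below them for the core and for both cap sets. DS-5272 replicate 2 lies nearest to the vehicle samples for the core and the cap.

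The samples of a group did not vary alike in the sets. In the DS-5272 group, replicate 2 had the highest value for all 30 constitutive genes and the lowest for 4 of the 5 immunoproteasome genes. Among vehicle samples, the median coefficient of variation was 3.13% over the 30 constitutive genes and 12.9% over the 5 immunoproteasome genes. In the DS-5272 samples it was 9.63% and 8.71%. Without DS-5272 replicate 2, 16 of the 30 constitutive genes were called lower, against 2252 of all 11130 tested genes. Leaving out vehicle replicate 1, 2 or 3 left 6, 1 and 4 of the 30, against 1664, 1389 and 1492 of the 11130. Without vehicle replicate 2 or 3, the share of the 30 was thus not above that of all tested genes.

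The wider system was read from 56 partner genes, of which 51 were tested under their own entry. Of these, 17 were called higher and 4 lower, against 24.2% and 22.0% of all tested genes. Among 8 tested regulators of proteasome genes, 6 were called higher and none lower, against the same shares. Nfe2l1, which drives the constitutive subunits when the proteasome is impaired, did not pass the test (log2 fold change 0.19, SE 0.10, limma adjusted p = 0.158, and -0.07 after rescaling to a common total). Nfe2l2, the antioxidant regulator, rose by 1.02 on the log2 scale (SE 0.21, limma adjusted p = 0.00930).

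Regulators of the interferon response rose as well. Irf1, which activates the inducible subunits, measured 24.4, 30.7 and 33.5 FPKM in vehicle and 49.4, 75.6 and 104 FPKM in DS-5272 samples (log2 fold change 1.29, SE 0.27, limma adjusted p = 0.0102), without overlap. Irf8, a myeloid interferon factor, rose by 1.24 (SE 0.17, limma adjusted p = 0.00322) and Nlrc5, the class I activator, by 0.94 (SE 0.31, limma adjusted p = 0.0454), each on the log2 scale. After rescaling to a common total, Nlrc5 was no longer called (limma adjusted p = 0.147) and Irf1 and Irf8 were. Among the DS-5272 samples, Irf1 was highest in replicate 3, and Irf8 and Nlrc5 were highest in replicate 1, as were the 5 immunoproteasome genes. A link between these regulators and the immunoproteasome genes was not tested.

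Peptide supply to MHC class I had 5 of 10 tested genes called higher and none lower, against 24.2% of all tested genes called higher and 22.0% lower. Tapbp, which docks class I molecules to the transporter, rose the most, by 1.01 (SE 0.13, limma adjusted p = 0.00309), and B2m, the light chain of class I, by 0.84 (SE 0.14, limma adjusted p = 0.00517). Tap1, which shares its start region with Psmb9, rose by 0.55 (SE 0.17, limma adjusted p = 0.0341), and its partner Tap2, which follows Psmb8, differed by -0.02 (SE 0.12, limma adjusted p = 0.903). After rescaling to a common total Tap1 was no longer called (limma adjusted p = 0.226), and Tapbp and B2m were. All 5 tested genes of the interferon-induced ubiquitin-like system were called higher, against 24.2% of all tested genes, led by Isg15, the modifier itself, at 18.5, 10.4 and 9.73 FPKM in vehicle and 102, 47.3 and 76.9 FPKM in DS-5272 samples (log2 fold change 2.45, SE 0.33, limma adjusted p = 0.00334), and 3 of the 5 were called after rescaling to a common total, against 15.4%.

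Of 11 factors bound to the proteasome, 1 was called higher and 2 lower, against 24.2% and 22.0% of all tested genes. With the replicate block, Zfand2a (limma adjusted p = 0.00475) and Shfm1 (limma adjusted p = 0.0323) were called higher too. The deubiquitinases of the cap, Uchl5 and Usp14, fell by 0.81 (SE 0.18, limma adjusted p = 0.0124) and 0.76 (SE 0.16, limma adjusted p = 0.0110) on the log2 scale, and Zfand5, an activator of the particle, rose by 0.83 (SE 0.20, limma adjusted p = 0.0159). Pomp, the chaperone of core maturation, differed by 0.11 (SE 0.10, limma adjusted p = 0.363), and by -0.15 after rescaling to a common total. None of the 6 ubiquitin and E1 genes passed the limma test without the replicate block. Of 11 shuttle and p97 genes, 2 were called lower and none higher. Both lists stand against the same 24.2% of all tested genes called higher and 22.0% lower.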

How the data were processed

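Strand-specific RNA-Seq libraries were trimmed by the authors (cutadapt 1.8.1 and fastx-toolkit), checked with FastQC and aligned to GRCm38 reference transcripts with TopHat2 2.1.1, and the deposited FPKM values per gene came from Cufflinks 2.2.1. No counts per gene are part of the table, so no count model was used and precision was judged from the 3 samples of a group. The labels do not say that these came from separate mice, so p-values measure the spread between these samples, which may be technical. The fragment numbers were estimated from the steps of low FPKM values, with the scale set by 302 genes of 1 transcript.

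The table has 26632 entries with 26082 different names, and lines that shared 1 of 435 repeated names were added up. After log2(FPKM + 1), limma 3.58.1 in R 4.3.3 (lmFit, then eBayes with its trend option, two-sided) compared the groups for the 11130 genes that averaged 1 FPKM or more. Benjamini-Hochberg adjustment ran over the same genes at a threshold of 0.05, and fold changes on this scale understate those of low genes. Ratios were compared by exact permutation. Other steps ran in Python 3.11.15 (pandas 2.3.3, numpy 2.4.6), and matplotlib 3.10.9 drew the plots.

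The genes, the role classes, the partner and marker lists and the tests were chosen with earlier results of these data known. Full statistics were planned for the 5 immunoproteasome genes, Psmb5, Psmb6, Psmb7 and Psme3, for the highest and the lowest gene of each other role and for named regulators, and further values were chosen after they were seen. Psmb5 was added through its joined entry, also after the data were seen. Of the partners, Ddi2, Adrm1 and H2-D1 stood only in joined entries, and Nfe2l3 and Ubd were below 1 FPKM. Some genes that the naming rule selects are left out of the text.

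Replicate numbers run from 1 to 3 in both groups of the labels, with no shared batch named. Deviations from the group means correlated by 0.66, 0.21 and 0.43 between same-numbered samples, all above 0.1. Of the differently numbered samples, vehicle 2 with DS-5272 3 (0.34) and vehicle 3 with DS-5272 2 (0.18) were also above 0.1, and the rest were below 0. This measure therefore does not single out the same-numbered pairs. The main fit and the permutation test had no pairing. A fit with the number as a block was run beside them, and the blocked value is given where it changed a call. Exons of 13 of the 46 genes overlap another gene in GENCODE (GRCm38). Alternatives covered the pseudocount, the filter, scaling, the block, the variance trend and each left-out sample.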

Additional observations from a re-analysis of the deposited data

How the results depend on the processing

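The immunoproteasome genes called higher numbered 4 of 5 as deposited, 2 without a filter and after rescaling by median ratio, and 0 after rescaling to a common upper quartile, to a common total or by quantile normalization, and from 0 to 4 with 1 sample left out. The 4 genes kept a positive log2 fold change throughout. Constitutive genes called lower numbered 12 of 30 as deposited, 23 after rescaling to a common upper quartile, 25 to a common total and 27 by quantile normalization, and from 1 to 16 with 1 sample left out. Partner genes called lower went from 4 to 9 with a common total and 10 by quantile normalization, and from 2 to 4 with 1 sample left out. Of all tested genes, 1713 were called higher with a common total against 2697, and with 1 sample left out 1623 to 2934 were called higher and 1389 to 2432 lower. Over the 46 genes the calls were 4 higher and 19 lower as deposited, 0 and 31 with a common upper quartile, 2 and 21 by median ratio, 0 and 33 with a common total and 0 and 34 by quantile normalization. In the same order, 24.2%, 20.1%, 24.0%, 15.4% and 21.7% of all tested genes were called higher. The shares of all tested genes called lower were 22.0%, 28.6%, 23.7%, 31.9% and 28.2%. The cause of these shifts was not tested. With the replicate number as a block, constitutive calls were 14, Psmb3 and Psmd12 passed the threshold in addition, and no other call among the 46 genes changed. The log2 ratios, unaffected by scaling between samples, differed by 0.62 for Psmb9 to Psmb6 and 0.98 for Psmb10 to Psmb7 with the pairing kept, where a sign-flip test cannot go below p = 0.25 (permutation). No call on them could pass 0.05 in any setting.

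Of the 23 calls among the 46 genes, Psmc1, Psmg3 and Psmc3ip held under all 16 alternatives. A few genes with small differences changed sign, and none was called in the new direction. In the order common upper quartile, median ratio, common total and quantile normalization, the log2 fold change was -0.10, -0.0093, -0.23 and -0.31 for Psmb8, -0.11, -0.014, -0.24 and -0.31 for Psma1, -0.13, -0.042, -0.25 and -0.075 for Psmd10, and -0.11, -0.018, -0.23 and -0.090 for Psmg4. Psmd8 was at -0.021 with a common upper quartile, -0.15 with a common total and -0.17 by quantile normalization, and the joined Psmb5 entry at -0.12 and -0.11 in the last 2, a check added after the data were seen. With 1 sample left out, Psmb8 ranged from -0.034 to 0.11, Psma1 from -0.032 to 0.066, Psma7 from -0.053 to 0.0060, Psmd10 from -0.055 to 0.046 and Psmg4 from -0.061 to 0.083. With 3 samples a group and depth known only as an estimate, small differences of single genes could not be resolved.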
